A study of Homo sapiens with 16 samples.

Results

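The genes described here are 40 genes of G2 and mitosis, of the 32080 gene symbols that the array carried. They were taken from a fixed list of names. No cut-off on a measured value chose them, but the list was drawn up with earlier results of these data known. Each gene was read from 1 probe, the one with the highest mean over the 16 arrays. The cells were RPMI-8226 and MM.1S, both established human multiple myeloma lines. Each line had 4 groups with 2 biological replicates in each, namely cells kept for 6 days with the solvent DMSO, with 1 µM GSK126, with 1 µM UNC0638, or with 1 µM of each agent together. GSK126 inhibits EZH2, which trimethylates lysine 27 of histone H3, and UNC0638 inhibits G9a (EHMT2), which methylates lysine 9. Each RNA sample was labelled with 1 dye and hybridised to its own array. Every level below is a log2 intensity relative to the 75th percentile of its array, so a level of 0 equals that percentile, and every change is a difference of 2 such group means on the log2 scale. The 8 arrays of a line lay on 1 slide, so slide and line cannot be told apart.

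Cells that leave S phase build up cyclin B, which with CDK1 drives entry into mitosis, while polo-like and aurora kinases build the spindle. The spindle checkpoint holds anaphase until kinetochores are attached to microtubules, after which the anaphase-promoting complex marks cyclin B and securin for destruction and the cell divides. Most of these genes are transcribed in G2 under the transcription factors B-MYB, FOXM1 and NF-Y and repressed in resting cells by the DREAM complex, so their RNA is widely read as a measure of how many cells are cycling. Myeloma cells resemble plasma cells, which in the body no longer divide, and high levels of these genes mark a proliferative form of the disease.

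All 40 genes were well above background on all 16 arrays, so none was lost to the filter on dim probes. The 10 plasma cell markers checked, among them SDC1, IRF4 and XBP1, were also above background on every array of both lines. Of the markers of other cell types, ALAS2, EPB42, CDH1 and COL3A1 were above background on none. Between 46.5% and 49.7% of the spots of an RPMI-8226 array and between 49.9% and 52.8% of those of an MM.1S array were well above background, and no spot was saturated. With DMSO alone, 27 of the 40 genes had a lower mean in RPMI-8226 than in MM.1S, with a median difference of -0.13 and a range from -2.26 for UBE2C, the ubiquitin-conjugating enzyme of the anaphase-promoting complex, to 0.69. MKI67, which encodes the proliferation antigen Ki-67, differed by -2.10 in the same direction. These differences between lines are given without a test, since they are also differences between slides.

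What the genes share beyond their names was first read from their promoters, using the 250 bases before the annotated start in a RefSeq table of build GRCh38.p14, which held 33 of the 40 genes. FOXM1, AURKA, BIRC5, BUB3, TTK, UBE2C and TPX2 were not matched. The letters searched were CCAAT, the core of the NF-Y element, or its reverse complement ATTGG, and the core of the cell cycle homology region (CHR) as TTTGAA, its reverse complement TTCAAA, or TTCGAA, which is its own reverse complement. A CCAAT word and a CHR word can share at most 1 letter, and the words cover both strands. CCAAT or ATTGG was found in 24 of the 33 promoters (72.7%), against 33% of all 27305 promoters of the table, and 16 of the 33 (48.5%) held at least 2 matches, against 10%. A CHR word was found in 16 of the 33 (48.5%), against 14.6%, and both kinds of word in 14 (42.4%), against 5.24%. The nearest CCAAT match lay at a median of 55 bases before the start, and in 20 of the 24 promoters it lay within 75 bases. How close the nearest CCAAT match lay in all promoters of the table was not counted.

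In 9 of the 16 promoters with a CHR word, the match began fewer than 30 bases before the start. These 9 stretches were picked by that distance, so their shared place follows from the choice. Their genes have different roles, from a cyclin (CCNB2) and a kinase (PLK1) to a motor (KIF11) and a cytokinesis scaffold (ANLN). The word is TTTGAA, or in KIF11 its reverse complement TTCAAA. In the other promoters with a CHR word the nearest match began 55 to 161 bases before the start. The share of all promoters with a CHR word this close was not counted. Each of the 9 stretches is printed 5′ to 3′ on the strand of the gene, with the CHR word in capitals.
CCNB2, chr15:59105105-59105134, plus strand: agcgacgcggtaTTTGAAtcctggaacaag
PLK1, chr16:23678848-23678877, plus strand: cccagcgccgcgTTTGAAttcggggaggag
BUB1B, chr15:40161034-40161063, plus strand: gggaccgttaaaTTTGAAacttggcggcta
CENPA, chr2:26786026-26786055, plus strand: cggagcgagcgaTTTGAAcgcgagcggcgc
KIF11, chr10:92593090-92593119, plus strand: ctctgtctctttTTCAAAttgaggcgccga
HMMR, chr5:163460598-163460627, plus strand: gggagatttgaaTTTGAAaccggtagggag
PRC1, chr15:90994538-90994567, minus strand: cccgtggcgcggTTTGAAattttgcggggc
ANLN, chr7:36389830-36389859, plus strand: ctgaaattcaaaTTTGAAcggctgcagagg
MKI67, chr10:128126435-128126464, minus strand: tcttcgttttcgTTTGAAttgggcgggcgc
TOP2A, which encodes the topoisomerase that untangles mitotic chromosomes, held its CHR word farther out, 151 bases before the start, next to an inverted CCAAT word. CCNB1 held no CHR word in this window, and its nearest CCAAT match, 55 bases before the start, is shown in capitals beside it.
TOP2A, chr17:40418030-40418059, minus strand: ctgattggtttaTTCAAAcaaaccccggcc
CCNB1, chr5:69167083-69167112, plus strand: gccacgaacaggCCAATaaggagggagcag
A match is a run of letters and not a measured binding site, and the start used is the annotated one.

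**Figure D1:**
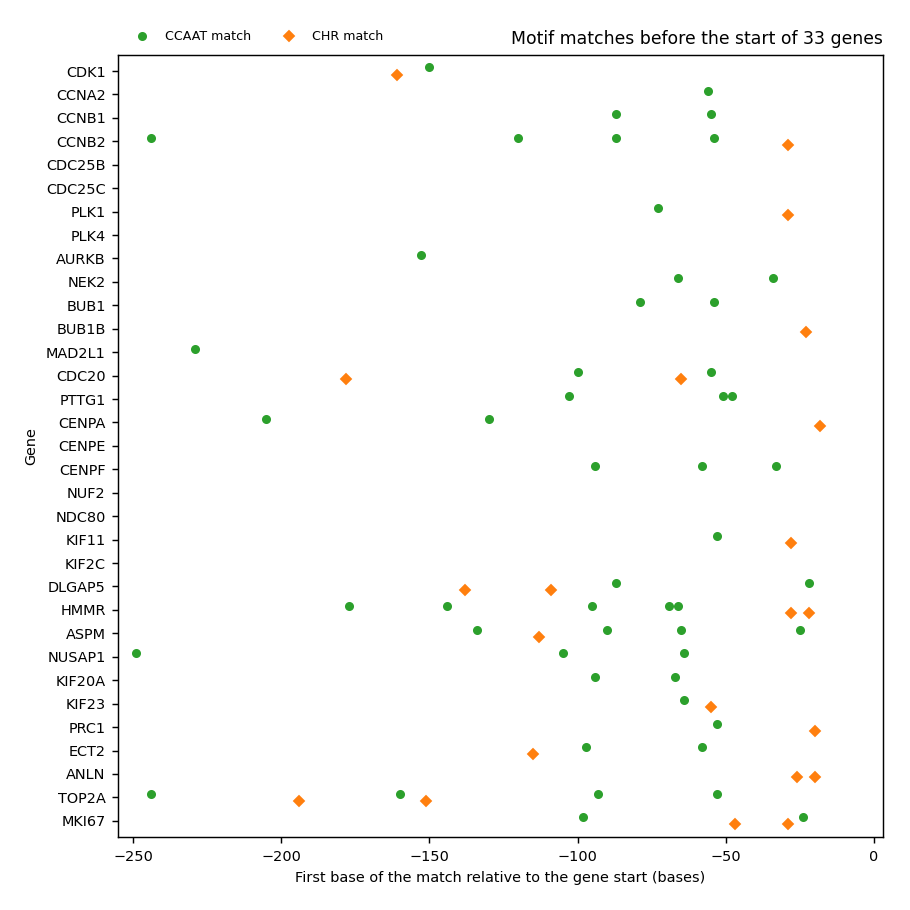
First base of each CCAAT or CHR match (green circles and orange diamonds) relative to the annotated gene start, in bases, for the 33 genes with a promoter. The nearest CCAAT match of 20 genes lies within 75 bases of the start, with further matches farther out, and the CHR matches of 9 genes lie fewer than 30 bases before it.

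The first question is whether the genes changed when both histone methyltransferases were inhibited in MM.1S cells. With both agents 35 of the 40 genes fell against DMSO and none rose, where 32% of all 16986 gene symbols tested fell and 23.2% rose (limma, adjusted p under 0.05). The median change was -0.62, against -0.11 over all gene symbols, and the changes ran from -1.42 for KIF11 to 0.00 for BUB3. In 38 of the 40 genes both treated arrays lay below both DMSO arrays, which held for 46.4% of all gene symbols, and in none did both lie above (33.6%). KIF11, CCNB1 and MAD2L1 (7.5% of the 40) had a mean more than 2-fold lower. That held for 5.93% of all gene symbols, called or not, so the shares were near each other. The RNA came from whole cultures, in which fewer cells in G2 or mitosis and less RNA per such cell cannot be told apart. The p-values measure only the spread between biological replicates, pooled over all 4 groups of the line and not taken from the groups compared alone. The replicate numbers were not taken to pair the MM.1S arrays. Read against the DMSO array of the same replicate number, the median change was -0.59 in number 1 and -0.62 in number 2. In both numbers 39 of the 40 genes were below 0, and the share of all gene symbols for which this held was not counted.

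**Figure D2:**
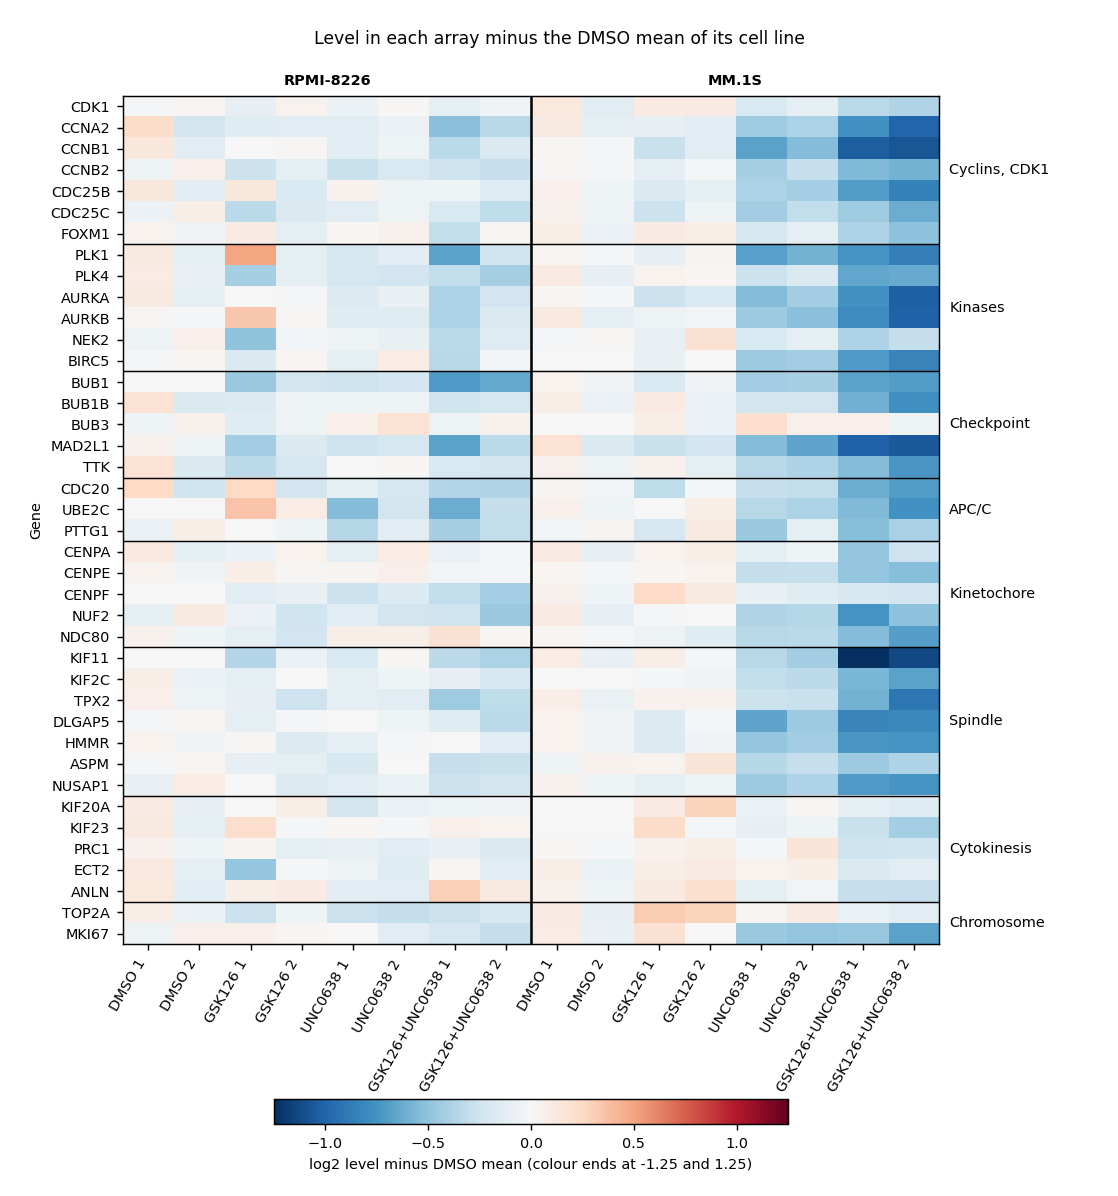
Level of each of the 40 genes (rows, grouped by role) in each of the 16 arrays (columns, by line and treatment) minus the DMSO mean of the same line, on the log2 scale. The MM.1S arrays given UNC0638, and more so those given both agents, are below DMSO for nearly all genes, while the GSK126 arrays of both lines show both signs.

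The cyclins, CDK1 and its activators fell in 7 of 7 genes with both agents in MM.1S (median -0.57). CCNB1, the cyclin that brings CDK1 into mitosis, read 4.48 and 4.42 with DMSO, 4.17 and 4.32 with GSK126, 3.79 and 3.91 with UNC0638, and 3.42 and 3.38 with both agents. Each step of that series lay clear of the next, and its fall with both agents was -1.05 (SE 0.09, limma adjusted p = 0.000455, n = 2 arrays a group). A second CCNB1 probe fell by 0.41 on the log2 scale (limma adjusted p = 0.0257). CCNA2, the cyclin of S phase and G2, read 2.82 and 2.61 with DMSO and 1.95 and 1.72 with both agents, a change of -0.88 (SE 0.12, limma adjusted p = 0.00161). CDK1 itself moved least in this group. It read 3.94 and 3.69 with DMSO, 3.92 and 3.92 with GSK126, 3.63 and 3.70 with UNC0638, and 3.48 and 3.44 with both agents. Only the arrays given both agents lay wholly below DMSO, by -0.36 (SE 0.10, limma adjusted p = 0.0287), and a second CDK1 probe changed by -0.00. FOXM1, the transcription factor of the G2 programme, read 2.65 and 2.51 with DMSO and 2.19 and 2.07 with both agents, a fall of -0.45 (SE 0.09, limma adjusted p = 0.00778). The phosphatases CDC25B and CDC25C, which activate CDK1, changed by -0.77 and -0.53. The calls for CDK1, FOXM1, CCNB2 and CDC25C were each lost under at least 1 other way of processing or with 1 array left out.

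The mitotic kinases and survivin fell in 6 of 6 genes, with the deepest median of the 8 roles, -0.79. PLK1, the polo-like kinase needed for bipolar spindles, read 1.92 and 1.87 with DMSO, 1.79 and 1.93 with GSK126, 1.22 and 1.30 with UNC0638, and 1.15 and 1.04 with both agents. The UNC0638 arrays and those with both agents form a low set apart from the other 4 arrays, and the change with both was -0.80 (SE 0.09, limma adjusted p = 0.000935). A second PLK1 probe fell by 1.18 on the log2 scale. AURKA, the aurora kinase of the spindle poles, read 3.11 and 3.06 with DMSO and 2.33 and 2.07 with both agents, a change of -0.89 (SE 0.11, limma adjusted p = 0.00129). AURKB, the kinase of the chromosomal passenger complex, read 1.70 and 1.46 with DMSO and 0.80 and 0.57 with both, also a change of -0.89 (SE 0.12, limma adjusted p = 0.0017). Its partner BIRC5, or survivin, read 5.69 and 5.68 with DMSO and 4.97 and 4.85 with both, a change of -0.77 (SE 0.08, limma adjusted p = 0.000808). In all 3 of these genes the lowest DMSO array was above the highest array with both agents. NEK2, a kinase that separates centrosomes, changed least, from 0.78 and 0.80 to 0.40 and 0.49, and its call (-0.34, SE 0.11, limma adjusted p = 0.0408) was lost under some settings.

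Of the spindle checkpoint, 4 of 5 genes fell (median -0.68). MAD2L1, whose protein binds and restrains CDC20, read 3.43 and 3.07 with DMSO, 2.97 and 3.01 with GSK126, 2.71 and 2.59 with UNC0638, and 2.24 and 2.20 with both agents. The fall with both was -1.03 (SE 0.13, limma adjusted p = 0.00129). BUB1, a checkpoint kinase, read 4.04 and 3.95 with DMSO and 3.32 and 3.30 with both agents, a change of -0.69 (SE 0.09, limma adjusted p = 0.00132). BUB1B and TTK, a further checkpoint component and the kinase upstream of it, changed by -0.68 and -0.64. BUB3, their binding partner, was the exception. Its probe read 4.16 and 4.17 with DMSO and 4.23 and 4.11 with both agents, so the groups overlapped (limma adjusted p = 0.982), whereas the other BUB3 probe fell by 0.54 on the log2 scale (limma adjusted p = 0.0025). Over all 50 probes of the 40 genes, 43 fell and none rose, and BUB3 was the only gene of the 9 with several probes whose probes had opposite signs.

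The anaphase-promoting complex co-factors and securin fell in 3 of 3 genes (median -0.66). CDC20, the activator that the checkpoint holds back, read 2.29 and 2.22 with DMSO and 1.63 and 1.56 with both agents, a change of -0.66 (SE 0.11, limma adjusted p = 0.00414). UBE2C fell as far, by -0.66 (SE 0.10, limma adjusted p = 0.0027). PTTG1, which encodes securin, read 5.87 and 5.93 with DMSO and 5.37 and 5.50 with both agents, with wider gaps in its GSK126 arrays (5.70 and 6.01) and UNC0638 arrays (5.44 and 5.79). Its change of -0.47 passed the threshold narrowly (SE 0.16, limma adjusted p = 0.0472).

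At the kinetochore and centromere 4 of 5 genes fell (median -0.50). NUF2 and NDC80, which sit together in the complex that grips microtubules, changed by -0.63 (SE 0.11, limma adjusted p = 0.00505) and -0.62 (SE 0.09, limma adjusted p = 0.002). NDC80 read 4.29 and 4.24 with DMSO and 3.73 and 3.58 with both agents, with no overlap. CENPE, the kinesin that moves chromosomes to the equator, read 2.49 and 2.44 with DMSO and 1.98 and 1.94 with both, a change of -0.50 (SE 0.07, limma adjusted p = 0.00216). CENPF, a large protein of the outer kinetochore, read 5.38 and 5.28 with DMSO and 5.13 and 5.10 with both, and its difference of -0.22 did not pass (SE 0.09, limma adjusted p = 0.0765). CENPA, the histone H3 variant of centromeres, passed with -0.37 (limma adjusted p = 0.0338).

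Spindle motors and microtubule-binding proteins fell in 7 of 7 genes (median -0.73) and held the deepest change of all. KIF11, the motor that pushes spindle poles apart, was read from a probe at chr10:94414627-94414686 (GRCh37). It read 3.28 and 3.09 with DMSO, 3.27 and 3.16 with GSK126, 2.84 and 2.75 with UNC0638, and 1.48 and 2.06 with both agents. The last 2 arrays lay below the other 6 but differed by 0.58 from each other, the widest gap of any of the 40 genes in that group. The change was -1.42 (SE 0.19, limma adjusted p = 0.00179). DLGAP5, a spindle assembly factor, went from 2.38 and 2.30 to 1.52 and 1.53, a change of -0.82 (SE 0.10, limma adjusted p = 0.00128). HMMR, a spindle pole protein, went from a mean of 3.96 (n = 2) to readings of 3.23 and 3.22, a change of -0.73 (SE 0.08, limma adjusted p = 0.001). TPX2, NUSAP1 and KIF2C, which nucleate, bundle and take apart microtubules, changed by -0.75, -0.72 and -0.62. ASPM, a protein of spindle poles, fell least, from 4.34 and 4.45 to 3.94 and 4.01 (-0.42, SE 0.09, limma adjusted p = 0.00894).

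Of the cytokinesis genes 3 of 5 fell (median -0.25). KIF23, a subunit of centralspindlin, read 3.43 and 3.44 with DMSO and 3.16 and 3.01 with both agents (-0.35, SE 0.11, limma adjusted p = 0.0392). PRC1, which bundles the central spindle, changed by -0.25 (limma adjusted p = 0.0483), and ANLN, a scaffold of the contractile ring, by -0.29 (limma adjusted p = 0.0285). The motor KIF20A and the RhoA exchange factor ECT2 had differences of -0.14 and -0.15 and did not pass (limma adjusted p = 0.25 and 0.174). None of the 5 was called after quantile normalization or when the percentile was taken over detected probes alone, and under quantile normalization PRC1 had the opposite sign, at 0.14.

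Of the mitotic chromosome genes 1 of 2 fell. MKI67 read 2.25 and 2.07 with DMSO, 2.35 and 2.15 with GSK126, 1.70 and 1.67 with UNC0638, and 1.69 and 1.49 with both agents, and the fall with both was -0.57 (SE 0.12, limma adjusted p = 0.00842). The other MKI67 probes changed by -0.77 and -0.66. TOP2A read 3.13 and 2.93 with DMSO, 3.35 and 3.31 with GSK126, 3.06 and 3.13 with UNC0638, and 2.95 and 2.90 with both agents. The arrays with both agents overlapped the DMSO range, with a difference of -0.11 (SE 0.10, limma adjusted p = 0.386). Among the promoters printed above, all 9 genes with a CHR word fewer than 30 bases from the start fell, with a median of -0.57. Of these, the calls for CCNB2, CENPA, PRC1 and ANLN did not hold under every setting. Over the whole window the median was -0.50 in the 16 genes with a CHR word, of which 14 fell, and -0.63 in the 17 without one, of which 15 fell. For CCAAT the median was -0.57 in the 24 genes with a match, of which 20 fell. It was -0.62 in the 9 genes without one, all of which fell.

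Of the 35 falls in MM.1S cells with both agents, 24 held under every other setting and with any array left out. The 11 lost at least once were ANLN, ASPM, CCNB2, CDC25C, CDK1, CENPA, FOXM1, KIF23, NEK2, PRC1 and PTTG1. The size of the fall depends on the scaling, since the members' median stood 0.51 below that of all gene symbols as reported and 0.30 below it after quantile normalization.

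With UNC0638 alone, 20 of the 40 genes fell in MM.1S and none rose, where 16.7% of all gene symbols fell and 13.8% rose. The median change was -0.33, against -0.06 over all gene symbols. In 32 genes both UNC0638 arrays lay below both DMSO arrays, which held for 40.9% of all gene symbols, and in 1 gene both lay above (29.8%). The largest called changes were -0.64 for PLK1 (SE 0.09, limma adjusted p = 0.00624), -0.60 for MAD2L1 (SE 0.13, limma adjusted p = 0.019) and -0.60 for CCNB1 (SE 0.09, limma adjusted p = 0.00727). By role, 4 of 7 cyclin and CDK1 genes, 4 of 6 kinases and survivin, 3 of 5 checkpoint genes, 1 of 3 anaphase-promoting complex co-factors and securin, 2 of 5 kinetochore genes, 5 of 7 spindle genes, none of 5 cytokinesis genes and 1 of 2 chromosome genes fell. AURKA, AURKB, BIRC5 and MKI67 were among those that fell, by -0.49, -0.48, -0.45 and -0.48. CDK1, FOXM1, CDC20, KIF11 and TOP2A were not, with differences of -0.15, -0.16, -0.29, -0.39 and 0.06. Only CCNB1 and PLK1 were called under every setting. The second CCNB1 probe had a difference of -0.22 that did not pass (limma adjusted p = 0.197). The second PLK1 probe changed by -0.80 (limma adjusted p = 0.00736). Without either DMSO array, either GSK126 array or either UNC0638 array the count of 20 dropped to between 2 and 13.

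With GSK126 alone, none of the 40 genes was called in MM.1S (limma, 1 at an unadjusted p under 0.05), where 2.37% of all gene symbols fell and 5.74% rose. The median difference was -0.00, against -0.05 over all gene symbols. In 11 genes both GSK126 arrays lay below both DMSO arrays and in 8 both lay above, against 36.8% and 25.3% of all gene symbols. The gene with the unadjusted p under 0.05 was TOP2A, at 0.30 above DMSO (SE 0.10, limma adjusted p = 0.111), and it was called under the intensity trend (limma adjusted p = 0.036). PLK1, KIF11 and BIRC5 differed from DMSO by -0.03, 0.03 and -0.05.

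**Figure D3:**
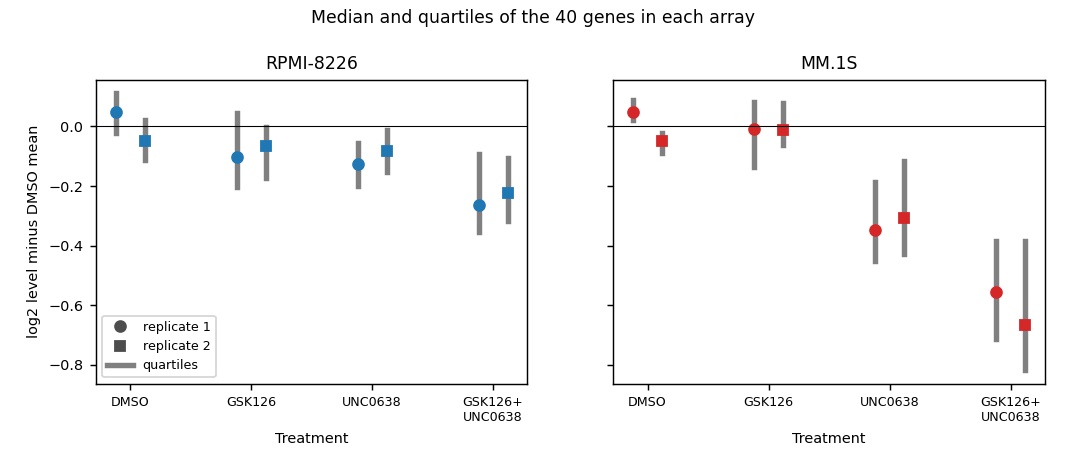
Median (point) and quartiles (bar) over the 40 genes of the level in each array minus the DMSO mean of its line, on the log2 scale, by treatment, for RPMI-8226 and MM.1S. In MM.1S the medians are -0.01 and -0.01 with GSK126, -0.35 and -0.31 with UNC0638 and -0.56 and -0.67 with both agents, and in RPMI-8226 the lowest are -0.26 and -0.22 with both agents.

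The next question is what each agent added to the other. Set against GSK126 alone, both agents lowered 36 of the 40 genes in MM.1S, and raised none, where 22.1% of all gene symbols fell and 16.2% rose, with a median of -0.58. KIF11 changed by -1.45 (limma adjusted p = 0.00374) and CCNB1 by -0.85 (limma adjusted p = 0.00229) in that comparison. CDC25C, BUB3, PTTG1 and ECT2 did not pass. Set against UNC0638 alone, both agents lowered 5 genes and raised none, where 7.34% of all gene symbols fell and 6.69% rose. The median was -0.27, against -0.05 over all gene symbols. An unadjusted p under 0.05 (limma) was found for 28 of the 40, and all 40 had a difference below 0. The shares of all gene symbols for these last counts were not taken. The 5 were KIF11 (-1.02, SE 0.19, limma adjusted p = 0.0295), CCNB1 (-0.45, SE 0.09, limma adjusted p = 0.0337), PLK4, the kinase of centriole duplication (-0.41, SE 0.10, limma adjusted p = 0.0434), BUB1B (-0.45, SE 0.11, limma adjusted p = 0.0454) and KIF2C (-0.31, SE 0.08, limma adjusted p = 0.0499). With any 1 of the 8 arrays left out this count was between 0 and 2.

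Whether the change with both agents differed from the sum of the single changes was tested on the log2 scale. No gene of the 40 was called in MM.1S, nor was any gene symbol of the array (0%), although 10 of the 40 had an unadjusted p under 0.05. The departure was below 0 in 39 of the 40 genes, with a median of -0.25, against -0.02 over all gene symbols. The share of all gene symbols below 0, or with an unadjusted p under 0.05, was not counted. The same 2 DMSO arrays and 4 single-agent arrays enter the departure for each gene. KIF11 had the largest, -1.05 (SE 0.27, limma adjusted p = 0.384). At this spread between replicates the departures could not be separated from 0.

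**Figure D4:**
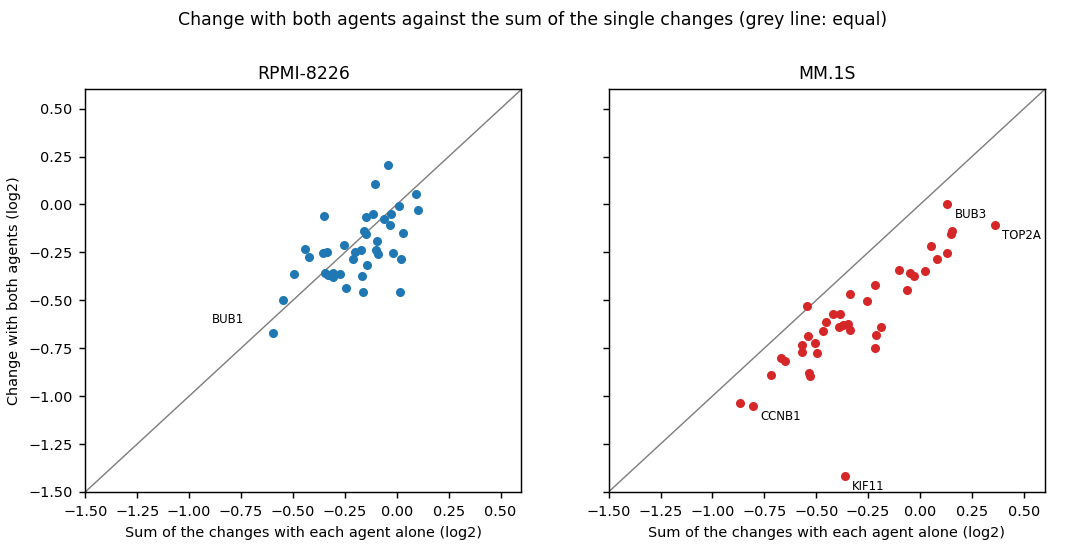
Change with both agents (vertical axis, log2) against the sum of the changes with GSK126 and with UNC0638 alone (horizontal axis, log2), 1 point per gene, for RPMI-8226 and MM.1S, with the grey line where they are equal. In MM.1S 39 of the 40 points lie below the line and KIF11 lies lowest, and in RPMI-8226 the points lie on both sides.

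In RPMI-8226 cells 1 of the 40 genes fell with both agents and none rose, where 5.03% of all 16018 gene symbols tested fell and 8.06% rose. The gene was BUB1, which read 4.68 and 4.69 with DMSO, 4.22 and 4.46 with GSK126, 4.43 and 4.44 with UNC0638, and 3.98 and 4.05 with both agents. Every treated array lay below both DMSO arrays, and the change with both was -0.67 (SE 0.14, limma adjusted p = 0.0289). The call was lost without either DMSO array, either UNC0638 array or either array given both agents, with limma adjusted p-values between 0.0707 and 0.142, and also after quantile normalization (limma adjusted p = 0.0837), with the percentile of detected probes (0.0589), without the filter (0.092) and with the fit limited to the groups compared (0.0915).

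None of the other 39 genes passed. The median over the 40 was -0.25, against -0.12 over all gene symbols, and after quantile normalization it stood only 0.027 below theirs. With BUB1 included, 6 genes had an unadjusted p under 0.05, and in 29 genes both treated arrays lay below both DMSO arrays and in none above, against 39% and 23.5% of all gene symbols. MAD2L1 read 2.91 and 2.81 with DMSO and 2.19 and 2.53 with both agents, a difference of -0.50 (SE 0.17, limma adjusted p = 0.103). PLK1 read 2.42 and 2.19 with DMSO, 2.79 and 2.18 with GSK126, 2.10 and 2.17 with UNC0638, and 1.63 and 2.06 with both agents. The gap of 0.61 between its GSK126 arrays exceeded its difference of -0.46 with both agents (SE 0.25, limma adjusted p = 0.249). CCNB1, AURKA, AURKB, CDC20 and BIRC5 had differences of -0.26, -0.32, -0.28, -0.37 and -0.19. CDK1 differed by -0.08 and FOXM1 by -0.15. TOP2A and MKI67 had differences of -0.23 and -0.25, with 0.04 and -0.19 at the other MKI67 probes, and NDC80 and ANLN had differences above 0, at 0.11 and 0.21. The replicates set a wider limit here, since the median SE over the 40 genes was 0.149 in RPMI-8226 and 0.0976 in MM.1S. Read within replicate numbers, the median was -0.27 in number 1 and -0.13 in number 2, and 33 genes were below 0 in both. The share of all gene symbols below 0 in both was not counted here either.

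With a single agent none of the 40 genes was called in RPMI-8226. GSK126 gave a median of -0.08 and 1 gene with an unadjusted p under 0.05, and 0.0562% of all gene symbols fell and 0.656% rose by limma. Both GSK126 arrays lay below both DMSO arrays in 12 genes and above them in 1, against 23.8% and 14.9% of all gene symbols. UNC0638 gave a median of -0.10 and no gene with an unadjusted p under 0.05, and 0.0749% of all gene symbols fell and 0.649% rose. Both UNC0638 arrays lay below both DMSO arrays in 13 genes and above them in 2, against 25.4% and 17.3% of all gene symbols. Both agents against GSK126 alone called none of the 40 (3 at an unadjusted p under 0.05, 0.556% of all gene symbols lower and 2.22% higher), nor did both against UNC0638 alone (1 at an unadjusted p under 0.05, 0.587% of all gene symbols lower and 3.11% higher). The departure from additivity called none of the 40 and 0.175% of all gene symbols, and none of the 40 had an unadjusted p under 0.05.

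A fall called in 1 line and not in the other does not show that the lines differ, so the difference itself was tested in a fit over all 16 arrays. With both agents the change was called more positive in RPMI-8226 than in MM.1S for 6 genes and more negative for none, where the change was more positive in RPMI-8226 for 7.82% of all 18180 gene symbols and more negative for 6.61%. The median difference over the 40 genes was 0.33, against 0.06 over all gene symbols, and 16 of the 40 had an unadjusted p under 0.05. KIF11 differed by 1.06 (SE 0.26, limma adjusted p = 0.0238), with 2.59 and 2.57 in the RPMI-8226 DMSO arrays and 2.25 and 2.19 with both agents. CCNB1 differed by 0.79 (SE 0.17, limma adjusted p = 0.0136), with 4.82 and 4.53 in RPMI-8226 DMSO arrays and 4.34 and 4.49 with both agents, while in RPMI-8226 its second probe differed from DMSO by 0.01. NDC80 differed by 0.72 (SE 0.15, limma adjusted p = 0.0116), since its RPMI-8226 arrays read 4.55 and 4.44 with DMSO and 4.68 and 4.52 with both.

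The other 3 were HMMR, DLGAP5 and CENPE, which differed by 0.67, 0.58 and 0.48 (limma adjusted p = 0.0189, 0.0363 and 0.0305). CENPE was level in RPMI-8226, at 1.49 and 1.41 with DMSO and 1.42 and 1.43 with both agents. BUB1, the gene called in RPMI-8226, differed by 0.01 between the lines. The count of 6 was 12 without RPMI-8226 DMSO replicate 1, 10 without either RPMI-8226 GSK126 array, 3 without RPMI-8226 DMSO replicate 2 or replicate 1 of both agents, and 1 without MM.1S DMSO replicate 1 or MM.1S replicate 2 of both agents. No difference between the lines was called for GSK126 (1 gene at an unadjusted p under 0.05, 0.429% of all gene symbols more positive in RPMI-8226 and 0.484% more negative) or for UNC0638 (7 at an unadjusted p under 0.05, 1.16% more positive and 2.05% more negative) by limma.

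**Figure D5:**
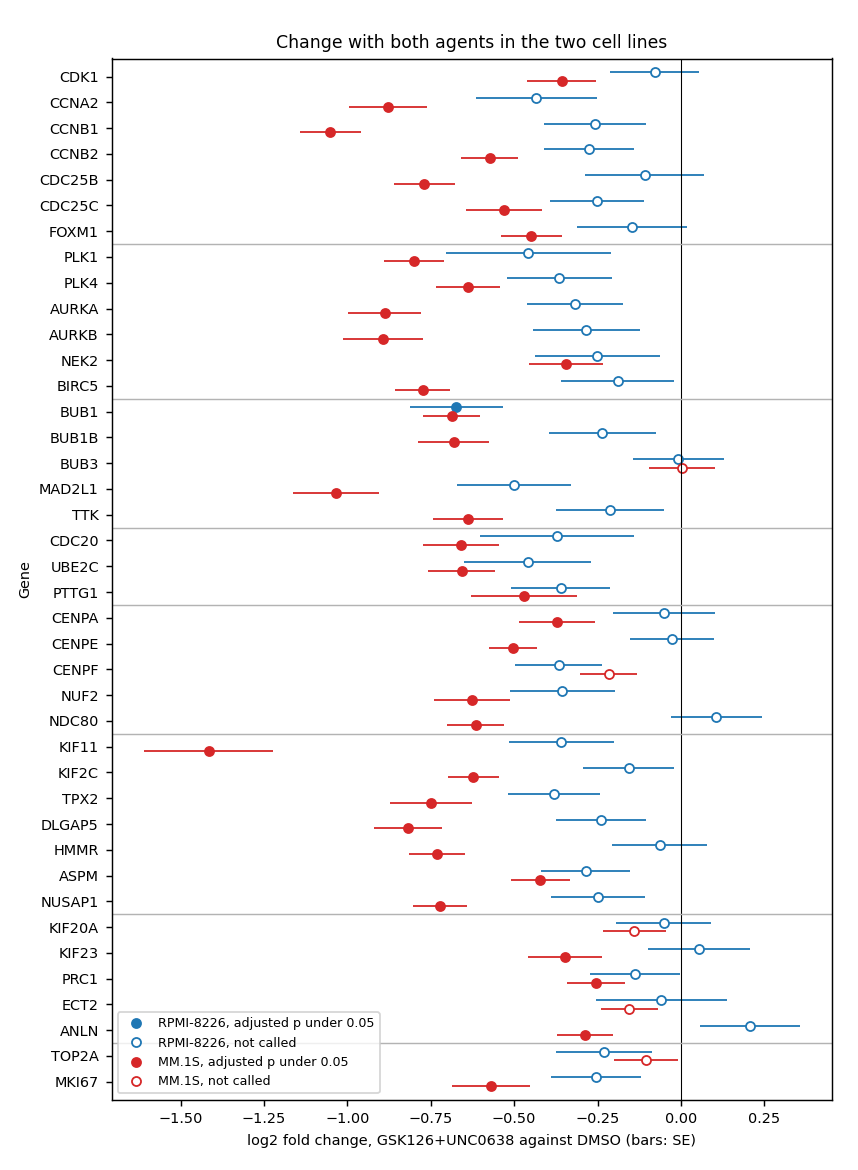
Log2 change with both agents against DMSO for each of the 40 genes, by role, in RPMI-8226 and in MM.1S, with bars for the standard error. MM.1S points lie lower for 37 of the 40 genes, most for KIF11, and BUB1 is at the same place in both lines.

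The rest of the G2 and mitosis programme, from a longer list of 92 measured genes outside the 40, fell in 81 cases and rose in 2 in MM.1S given both agents (median -0.65), against the 32% lower and 23.2% higher of all gene symbols. NCAPD3 of the condensin complex changed by -1.68 (limma adjusted p = 0.0139), or by -1.004 without replicate 1 of both agents, and its call was lost under 1 of 18 alternatives, without DMSO replicate 1. The centromere protein gene CENPN changed by -1.30 and PKMYT1, the kinase that inhibits CDK1, by -1.24. FAM64A and CKAP2 rose by 0.41 and 0.26. DNA replication genes fell in 56 of 58 cases, with a median of -0.93. Of these ORC1, an origin recognition subunit, changed by -1.75, the phosphatase gene CDC25A by -1.55 and MCM10 by -1.35. With UNC0638 alone 28 of the 92 and 30 of the 58 fell, against 16.7% of all gene symbols, and with GSK126 alone none and 1, against 2.37%. In RPMI-8226 given both agents 3 of 91 and 4 of 58 fell, against 5.03%, so these shares were near that of all gene symbols.

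Among 29 measured cell cycle transcription regulators and CDK inhibitors, 14 fell and 6 rose in MM.1S with both agents, against 32% and 23.2% of all gene symbols. E2F2, an activator of S phase genes, changed by -1.60 (limma adjusted p = 0.000419) and MYBL2, which encodes B-MYB, by -1.58 (limma adjusted p = 0.000777). CDKN1C, the CDK inhibitor p57, read -0.04 and 0.04 with DMSO, 1.66 and 1.31 with GSK126, 0.10 and -0.19 with UNC0638, and 1.87 and 1.72 with both agents. It rose by 1.49 with GSK126 alone (limma adjusted p = 0.00787) and by 1.79 with both agents (SE 0.15, limma adjusted p = 0.000455). In RPMI-8226, CDKN1C read 3.78 and 3.77 with DMSO, 3.59 and 3.55 with GSK126, 4.28 and 4.38 with UNC0638, and 4.16 and 4.04 with both agents, and no difference from DMSO passed (limma adjusted p = 0.626, 0.172 and 0.139). CDKN2D, or p19, rose by 0.51 in MM.1S, while CDKN1A, CDKN1B and CDKN2A had differences of 0.19, 0.14 and 0.58 that did not pass.

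Markers of cell types moved with the treatments too, in both directions. The level of the 10 plasma cell markers was summed on the linear scale, relative to the 75th percentile. In MM.1S this sum was 685 to 712 with DMSO and 461 to 463 with both agents. There 10 of 10 genes were called lower, against 32% of all gene symbols. In RPMI-8226 the sum was 353 to 414 and 215 to 282. Of the 10 genes 4 were called lower and 1 higher there, against 5.03% and 8.06% of all gene symbols. The sum over 4 T cell markers lay between 0.411 and 0.489 with DMSO and between 12.4 and 14.1 with both agents in RPMI-8226, and in MM.1S between 0.232 and 0.265 and between 0.745 and 0.824. The sum over 3 myeloid markers lay between 6.55 and 9.91 with DMSO and between 17.5 and 20.7 with both agents in RPMI-8226, and in MM.1S between 2.30 and 2.78 and between 7.03 and 7.86. The part of these changes in the values of the G2 and mitosis genes was not tested.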

How the data were processed

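Gene expression was measured in 16 samples on 1-colour human arrays. The authors amplified total RNA, labelled it with Cy3 and scanned the arrays with Agilent Feature Extraction 10.7 (named in the submitters' processing notes). For each spot the deposited files give a linear intensity from which the software had removed background, without scaling between arrays. A deposited table of the series holds the same intensity values rounded to 3 significant digits (99.9958% equal). The methods name Gene Spring GX, with ontology, pathway and gene set enrichment analyses, and no test of single genes on the arrays.

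Control spots and outlier spots were dropped. From each log2 intensity the array's 75th percentile was subtracted, and repeat spots of 1 probe were averaged. Probes dim in all groups of a line were dropped, where a group counted as dim unless both its arrays were well above background. limma 3.58.1 (R 4.3.3; lmFit, eBayes) was fitted over the 8 arrays of a line, or over 16 for differences between lines, with Benjamini-Hochberg adjustment over all 23199 (RPMI-8226) or 25102 (MM.1S) probes and a threshold of 0.05. Called means past that threshold, and a fall or rise is a called change. Gene counts use 1 probe per symbol. Shares of all gene symbols were not counted for unadjusted p-values, for the sign of a difference or within replicate numbers. Groups follow the labels' line and treatment. Genes described with values are the best known members, the largest and smallest changes of each role, the largest called changes and those singled out by count, plus others added after their values were seen. The members and lists were chosen with earlier results of these data known. The fits were tested on simulated data.

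In RPMI-8226 the deviations of same-numbered arrays from the group means correlated across probes in 6 of 6 pairs of groups (r from 0.254 to 0.415). The labels' numbers may therefore pair these arrays. The reported fits held no term for the replicate number, and a replicate block was run only as an alternative. Alternatives were quantile normalization, normexp (offset 50), the percentile of probes detected on all 16 arrays, the replicate block, the series table, no filter, a filter requiring all 8 arrays, an intensity trend, only the groups compared, 1 fit over 16 arrays, the mean over a gene's probes, and each array left out. The 2 arrays a group and the signal over background limit the precision.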

Additional observations from a re-analysis of the deposited data

Results flagged for a closer look

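Among the genes named in the report, 12 changes passed a test of the difference between the lines (limma over all 16 arrays), which with both agents also called 7.82% of all gene symbols in the positive and 6.61% in the negative direction. They are given here as the change in RPMI-8226 minus that in MM.1S on the log2 scale. With both agents these were 1.06 for KIF11, 0.79 for CCNB1, 0.72 for NDC80, 0.67 for HMMR, 0.58 for DLGAP5 and 0.48 for CENPE among the 40 genes. NDC80 was called under 24 of 25 settings, the reported one included, CCNB1 under 23, HMMR under 20, KIF11 under 19, and DLGAP5 and CENPE under 12 each.

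Among the other cell cycle genes, E2F2 differed by 1.45 with both agents (adjusted p = 0.000979) and by 0.85 with UNC0638 (adjusted p = 0.0393), and the latter call was lost under 12 of 24 alternatives. ORC1 differed by 1.20 with both agents (adjusted p = 0.0154) and MYBL2 by 1.10 (adjusted p = 0.0405), the latter lost under 14 of 24. CDKN1C differed in the other direction, by -1.47 with both agents (adjusted p = 0.00131) and by -1.69 with GSK126 (adjusted p = 0.00514), with neither call lost under any alternative. These are limma values, and the lines were on different slides. E2F2, ORC1, MYBL2 and CDKN1C were named for their large changes in MM.1S with both agents. Those values enter the difference between the lines, so the choice favoured a large one.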

How the results depend on the processing

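Of 391 recomputed counts and medians, 325 stayed within 1.5 times the reported count or within the replicate spread, 65 moved and 1 reversed. The count of 35 genes that fell in MM.1S with both agents ran from 25 to 36 over the alternatives and from 27 to 33 with 1 array left out. Its median was -0.36 with quantile normalization, -0.41 with the percentile over detected probes, and -0.67 to -0.56 with 1 array left out. For UNC0638 in MM.1S the count was 5 (quantile), 8 (detected probes), 4 (no filter), 9 (only the groups compared) and 2 to 21 with 1 array left out, and the median was -0.17, -0.22 and -0.36 to -0.31. For GSK126 in MM.1S the median was 0.10, 0.082 and -0.055 to 0.041. For both agents against UNC0638 in MM.1S the count was 2 (quantile), 18 (normexp), 1 (detected probes), 0 (no filter), 12 (filter for all 8 arrays), 21 (intensity trend), 0 (only the groups compared), 1 (fit over 16 arrays), 9 (series table), 10 (mean over probes) and 0 to 2 with 1 array left out.

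In RPMI-8226 with both agents the count was 0 (quantile), 3 (normexp), 0 (detected probes), 0 (no filter), 2 (intensity trend), 0 (only the groups compared), 6 (fit over 16 arrays) and 0 to 1 with 1 array left out, and the median was -0.063 (quantile), -0.10 (detected probes) and -0.26 to -0.21. The fit over 16 arrays called 1 gene against GSK126 and 1 against UNC0638. The GSK126 median reversed to 0.0075 with quantile normalization, was -0.019 with detected probes, and ran from -0.12 to -0.07 with 1 array left out, and the UNC0638 median from -0.16 to -0.053. The count of differences between the lines was 10 (normexp), 2 (no filter), 12 (intensity trend) and 1 to 12 with 1 array left out. PRC1 reversed to 0.14 with quantile normalization, under which BUB3 was called higher with both agents (0.35) and PRC1 with UNC0638 (0.34) in MM.1S. The cause was not tested for any of these.

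The percentile over detected probes raised the median of all gene symbols in MM.1S with both agents by 0.21, and the share of calls that were higher from 42.0% to 61.7%; in RPMI-8226 these were 0.15, 61.6% and 80.6%. With UNC0638 in MM.1S that share went from 45.2% to 65.2%, and to 57.0% with quantile normalization, and with GSK126 from 70.8% to 85.6%, and to 56.7% with normexp. With the replicate block, both agents lowered 36 genes against DMSO and 9 against UNC0638 in MM.1S, where same-numbered arrays correlated at 0.0847 to 0.225 (over 0.1 in 5 of 6 pairs), so the numbers were not taken to pair them. The block changed no call of the 40 genes in RPMI-8226. Limits: 2 arrays a group, 1 slide a line, probes that may differ for 1 gene, and levels relative to each array's own 75th percentile.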
